A study of Mus musculus with 12 samples.

Results

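Zscan4a, Zscan4b, Zscan4c, Zscan4d, Zscan4e, Zscan4f, Tcstv1, Tcstv3 and Zfp352 are mouse genes named together here because their RNA marks the 2-cell embryo. They were taken by gene symbol as a list of 9, out of 55291 rows of the deposited count table, and all 9 were among the 21160 genes that passed the filter on low counts. The assay was Smart-seq2 on poly(A) RNA, a method that primes cDNA with oligo(dT) and amplifies it by PCR, in 12 libraries of mouse embryos. The groups were 2-cell embryos from a maternal Pan2 deletion (KO L2C), wild-type 2-cell embryos (WT L2C), zygotes from a maternal Pan2 deletion (KO PN3) and wild-type zygotes (WT PN3), with 3 libraries in each. PN3 and L2C are the stage names of the labels, the design text speaks of zygotes and 2-cells, and the extraction protocol names oocytes beside 2-cells. The labels and design text name no strain, age, Cre driver or number of pooled embryos, nor whether replicates came from separate animals, so p-values measure the spread between these libraries only. PAN2 is the nuclease of the PAN2-PAN3 complex that trims poly(A) tails, and a priming step that needs a tail measures tailed RNA rather than all RNA.

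The mouse genome is largely silent after fertilization and is switched on in steps that peak in the 2-cell embryo. Zscan4 genes encode proteins with a SCAN domain and zinc fingers that appear in a burst at that stage and, in embryonic stem cells, in a small and transient set of cells, where they act on telomeres and genome stability. Tcstv1 and Tcstv3 encode small proteins of the same stage, which have also been linked to telomere length in embryonic stem cells, and Zfp352 encodes a zinc finger protein used as a 2-cell marker. The transcription factors Dux, Dppa2, Dppa4, OBOX proteins and NR5A2 are known activators of 2-cell genes.

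The Zscan4 genes lie in a cluster of close copies on chromosome 7 (mm10), between 10794242, the start of Zscan4a, and 11402318, the end of Zscan4f. Tcstv1 (119893388 to 119894785, minus strand) and Tcstv3 (120316878 to 120318178, plus strand) lie on chromosome 13, and Zfp352 (90218820 to 90225702, plus strand) lies alone on chromosome 4. GENCODE M21 lists Zscan4a as an unprocessed pseudogene and the other 8 as protein coding, and RefSeq lists Zscan4e as a pseudogene too. The 6 Zscan4 transcripts were 96.6% to 99.7% identical over 15 pairs, and Tcstv1 and Tcstv3 were 89.7% identical. Of all 151-base windows of a transcript, the read length used, 87.2% were unique to the gene for Zscan4d, 75.2% for Zscan4a, 39.2% for Zscan4c, 31.8% for Zscan4b, 22.8% for Zscan4e and 13.9% for Zscan4f, against 100% for Tcstv1, Tcstv3 and Zfp352. The values of Zscan4b, Zscan4c, Zscan4e and Zscan4f are therefore uncertain as single genes, since the labels do not say how reads with several matches were counted.

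The promoters are shown because the copies share nearly all of their sequence, whereas the Zfp352 promoter is built differently. RefSeq promoter windows (GRCm38.p6, 250 bases before to 50 after the start) were matched for 5 of the 9 genes, and those of Zfp352, Zscan4d and Zscan4c are printed 5′ to 3′. Zfp352 is at chr4:90218570-90218869 (plus strand), Zscan4d at chr7:11166099-11166398 (minus strand) and Zscan4c at chr7:11005495-11005794 (plus strand). Capitals mark TAATCC, a homeodomain motif of the OBOX kind, in Zfp352, and mark AAGGTCA, an NR5A motif that reads TGACCTT on the printed strand, and TATAAA, the TATA box, in the Zscan4 windows.
Zfp352: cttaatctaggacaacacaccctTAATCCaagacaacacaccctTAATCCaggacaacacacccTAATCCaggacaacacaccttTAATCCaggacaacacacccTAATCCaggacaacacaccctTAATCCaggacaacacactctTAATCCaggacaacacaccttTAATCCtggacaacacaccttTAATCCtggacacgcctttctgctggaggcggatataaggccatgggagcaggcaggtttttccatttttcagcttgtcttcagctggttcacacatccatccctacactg
Zscan4d: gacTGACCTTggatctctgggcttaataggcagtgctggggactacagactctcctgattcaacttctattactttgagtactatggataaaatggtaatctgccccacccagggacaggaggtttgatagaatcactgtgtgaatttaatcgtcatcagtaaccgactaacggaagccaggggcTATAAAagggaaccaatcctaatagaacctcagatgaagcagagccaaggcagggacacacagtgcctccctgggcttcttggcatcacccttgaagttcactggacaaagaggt
Zscan4c: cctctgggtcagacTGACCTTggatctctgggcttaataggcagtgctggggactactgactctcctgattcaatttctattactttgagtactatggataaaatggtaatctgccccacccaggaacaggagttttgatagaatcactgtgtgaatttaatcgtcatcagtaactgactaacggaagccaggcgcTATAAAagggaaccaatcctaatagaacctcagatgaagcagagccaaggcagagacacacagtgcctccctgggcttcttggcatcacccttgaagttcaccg
The Zfp352 window held TAATCC 9 times on the plus strand, in a row of near-repeats, and it was the only one of 32851 promoters with as many matches, while 7.06% of them held at least 1. Each of the 4 matched Zscan4 windows held AAGGTCA once, as did 4.72% of all promoters at least once, and TATAAA once, against 13.6% of all promoters. Those 4 windows (Zscan4b, Zscan4c, Zscan4d and Zscan4f) were 95.3% to 99.3% identical over 6 pairs. Neither GATTNAATC, the core of the DUX motif found in 0.268% of promoters, nor TGCACAC, the ZSCAN4 motif found in 4.4%, was present in any of the 5 windows. Motifs were searched on both strands, and a match or its absence describes these letters in this window only.

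Before the results, the libraries were checked. Total counts ran between 14453592 and 28624766 per library, and levels are given as CPM, counts per 1000000 counts after TMM scaling. Pan2 stood at 15.3, 17.8 and 34.5 CPM in KO L2C, against 62.2, 60.1 and 69.1 CPM in WT L2C, and at 1.58, 6.67 and 4.52 CPM in KO PN3, against 188.7, 172.6 and 159.6 CPM in WT PN3. An rRNA row took 24.0% to 34.9% of counts in 4 libraries, replicate 3 of each L2C group and replicate 2 of each PN3 group, and 4.35% to 13.9% in the other 8. Oocyte and embryo markers summed to 3358 to 6410 CPM in KO L2C, 3263 to 4296 in WT L2C, 13348 to 21495 in KO PN3 and 13030 to 18982 in WT PN3, with all 8 detected in every group. Granulosa or cumulus markers (12) summed to 35.9 to 53.1 CPM in KO L2C, 15.5 to 23.9 in WT L2C, 30.5 to 44.2 in KO PN3 and 23.1 to 37.0 in WT PN3, and Inha and Fshr were at 0 in both L2C groups. Sperm markers (8) summed to 8.22 to 9.27 CPM in KO L2C, 3.42 to 5.84 in WT L2C, 12.1 to 17.3 in KO PN3 and 14.1 to 18.4 in WT PN3. Oviduct or stroma markers (6) summed to 16.2 to 35.4 CPM in KO L2C, 6.66 to 7.65 in WT L2C, 1.29 to 19.2 in KO PN3 and 0.473 to 13.4 in WT PN3. The L2C ranges of all 3 of these lists lay higher in KO and did not overlap those of WT. In KO L2C edgeR called 1 of 7 tested granulosa or cumulus markers, 1 of 5 oviduct or stroma markers and 0 of 5 sperm markers higher. Of the 8 oocyte and embryo markers it called 3 higher and 1 lower. Over all genes, 7.24% were called higher and 9.74% lower. Blood markers (4) reached 45.6 to 64.0 CPM in KO L2C and 56.3 to 82.0 in WT L2C, against at most 0.112 in PN3. The part of these markers in the results was not tested.

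From zygote to 2-cell embryo, RNA of the Zscan4 genes and Zfp352 appeared from almost nothing in both genotypes, Tcstv3 rose 4.75-fold in KO and 12.3-fold in WT on pooled counts, and Tcstv1 was already abundant in zygotes. In KO, 8 of the 9 genes were called higher in L2C than in PN3, where 33.5% of all 21160 tested genes were. In WT, 9 of 9 were called higher, where 36.2% of all genes were. As the list was chosen as 2-cell genes, these counts were largely set by the choice and only describe the rise. Zscan4a, Zscan4b, Zscan4e and Zfp352 had at most 9 counts per PN3 group and passed the low-count filter only through L2C. Over all genes in KO, 7083 were called higher and 4251 lower, against 8409 and 2827 with scaling by total counts. A call is a Benjamini-Hochberg adjusted p under 0.05 in edgeR's quasi-likelihood test over all genes.

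**Figure D1:**
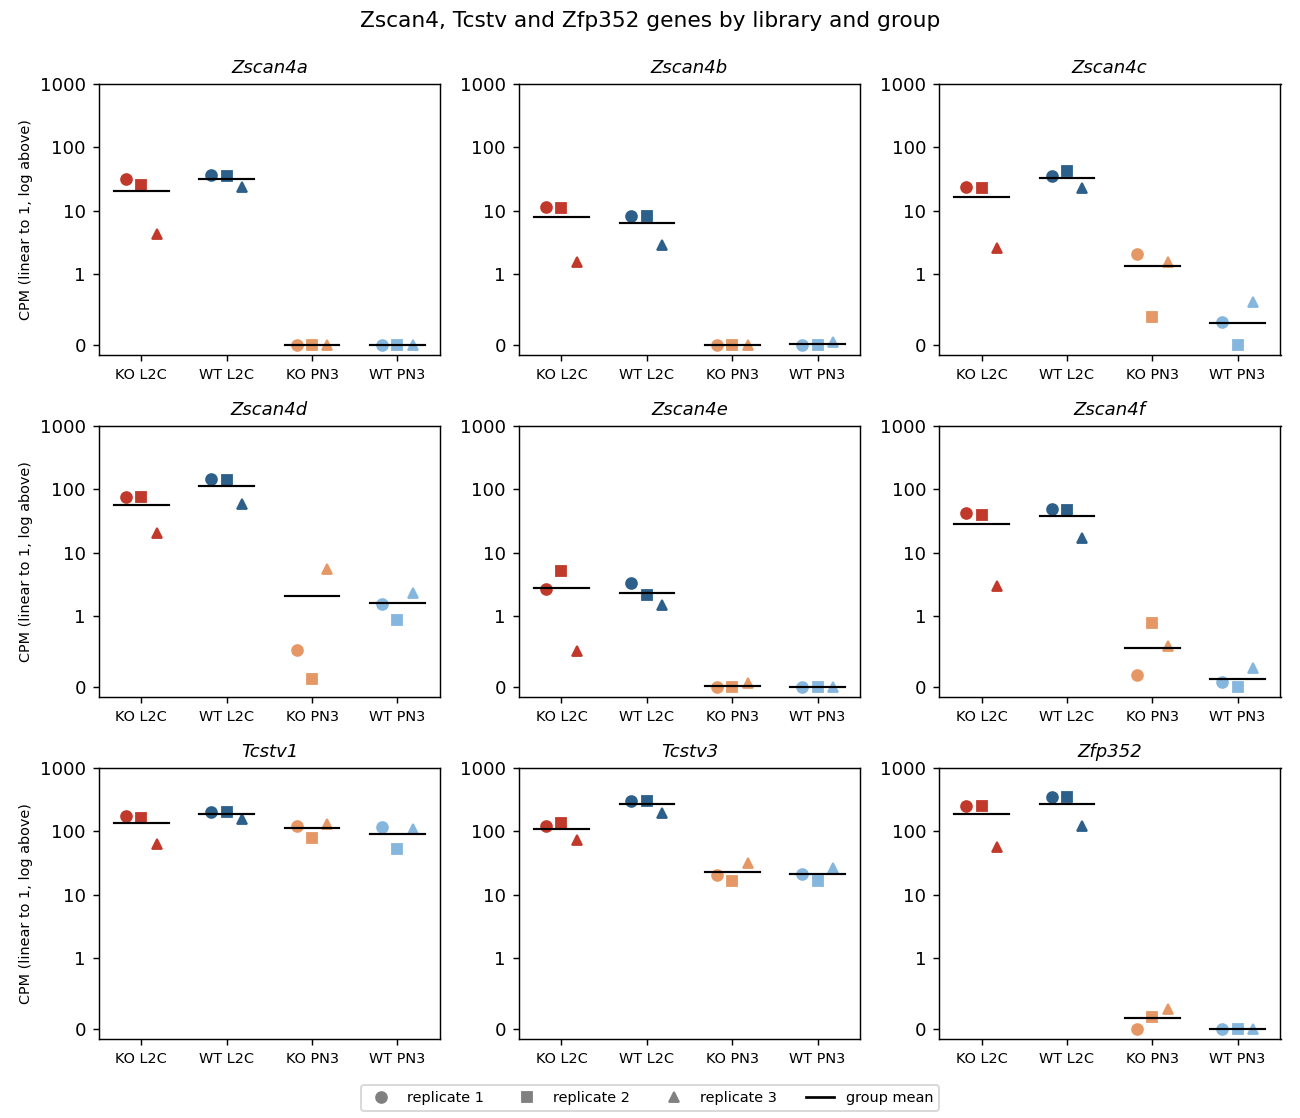
CPM per library of the 9 genes (vertical axes linear up to 1 CPM and logarithmic above), with groups along the horizontal axes, a point shape per replicate number and a bar for the mean of 3 libraries. Zscan4 genes and Zfp352 stand at 5.62 CPM or less in PN3, Tcstv1 lies between 52.2 and 200.2 CPM over all libraries, and replicate 3 is the lowest library of each L2C group for every gene.

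Zfp352 had 252.4, 249.4 and 55.4 CPM in KO L2C, against 0, 0.168 and 0.286 CPM in KO PN3, a total of 9 counts. The pooled ratio in KO was 1278.8 and the log2 fold change 10.27 (SE 0.96, edgeR adjusted p = 7.66e-06). In WT it had 346.1, 343.4 and 122.1 CPM in L2C and no count in any PN3 library, so its level was at least 6314-fold higher in WT L2C (edgeR adjusted p = 2.35e-06), set against a floor of 3 counts over the PN3 group.

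Zscan4d had the highest level per length of the 6 Zscan4 genes in both L2C groups, and it is the copy best separated from the others by sequence. It had 74.2, 74.4 and 20.6 CPM in KO L2C, against 0.527, 0.112 and 5.62 CPM in KO PN3 (log2 ratio 4.75, SE 0.97, edgeR adjusted p = 0.00123). In WT it had 142.6, 141.5 and 58.0 CPM in L2C, against 1.56, 0.952 and 2.32 CPM in PN3 (6.13, SE 1.03, edgeR adjusted p = 0.000225). The stages did not overlap in either genotype. Zscan4a was at 0 in all 6 PN3 libraries and was at least 422.7-fold higher in KO L2C and at least 740.7-fold higher in WT L2C. Zscan4b was at least 164.3-fold higher in KO L2C than in KO PN3, with its floor set in the same way, and its WT ratio of 453.6 rests on 1 PN3 count (95% counting interval 80.9 to 17960.2). Zscan4e rested on 1 count in KO PN3, with a ratio of 171.1 (95% counting interval 30.3 to 6803.2), and was at least 53.5-fold higher in WT L2C than in WT PN3. Pooled ratios of L2C over PN3 were 11.1 in KO and 101.2 in WT for Zscan4c, and 54.1 in KO and 326.6 in WT for Zscan4f. These intervals and floors cover counting error only, as amplified reads are not independent molecules.

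Tcstv1 and Tcstv3 differed from each other in zygotes, where Tcstv1 was the more abundant of the pair per length, at 78.9 ± 19.6 against 29 ± 9.70 CPM per kilobase in KO PN3 and 65.4 ± 24.4 against 27.2 ± 6.43 in WT PN3 (SD, n = 3 each). Tcstv1 had 174.3, 161.8 and 62.5 CPM in KO L2C, against 120.8, 79.2 and 131.0 CPM in KO PN3, with overlapping stages (log2 ratio 0.27, SE 0.38, edgeR adjusted p = 0.573). In WT it had 200.2, 199.9 and 156.2 CPM in L2C, against 114.2, 52.2 and 107.8 CPM in PN3, with every L2C library above every PN3 library (1.02, SE 0.38, edgeR adjusted p = 0.0323). That WT call was lost without WT PN3 replicate 2 (adjusted p = 0.109 in edgeR), without WT L2C replicate 1 (0.0779) or 2 (0.0774), and with those 2 close libraries summed (0.0807). In KO, Tcstv1 was called higher when the 4 rRNA-rich libraries were left out (log2 0.42, edgeR adjusted p = 0.00218), a fit that keeps only 2 close libraries per L2C group. Tcstv3 had 120.6, 135.7 and 71.6 CPM in KO L2C, against 20.3, 16.4 and 31.0 CPM in KO PN3 (log2 ratio 2.27, SE 0.33, edgeR adjusted p = 8.56e-05). In WT it had 298.2, 301.1 and 191.2 CPM in L2C, against 21.2, 16.2 and 26.2 CPM in PN3 (3.63, SE 0.34, edgeR adjusted p = 1.88e-06).

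Per length, on the scale of CPM per kilobase of the deposited gene length, the order at L2C was Tcstv3, Tcstv1, Zfp352, Zscan4d and Zscan4f in both genotypes. Tcstv3 averaged 140.3 ± 43.0 CPM per kilobase in KO L2C and 338.2 ± 80.4 in WT L2C, and Tcstv1 averaged 95 ± 43.8 in KO L2C and 132.6 ± 18.1 in WT L2C (SD, n = 3 each). Zfp352 averaged 81.6 ± 49.6 CPM per kilobase in KO L2C and 118.9 ± 56.5 in WT L2C, within the spread of Tcstv1 in both. Zscan4d averaged 24.8 ± 13.7 in KO L2C and 50.2 ± 21.4 in WT L2C, and Zscan4f 14.4 ± 11.2 in KO L2C and 19.1 ± 9.08 in WT L2C. Zscan4a (9.03 ± 6.32 in KO L2C, 14 ± 3.07 in WT L2C) and Zscan4c (7.26 ± 5.30 in KO L2C, 14.6 ± 4.35 in WT L2C) changed places between the genotypes, within their spread. Zscan4b (4.43 ± 3.10 in KO L2C, 3.59 ± 1.72 in WT L2C) and Zscan4e (1.53 ± 1.27 in KO L2C, 1.29 ± 0.52 in WT L2C) came last.

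In 2-cell embryos, Tcstv3 was lower in KO than in WT, and it was the 1 member of 9 that was called. Over all genes, 9.74% were called lower and 7.24% higher in KO L2C, so 1 lower and 0 higher of 9 is near the background in this fit, which has no replicate block. With the block 5 of the 9 were called lower, where 17.3% of all genes were. Those shares stand for 2062 lower and 1531 higher genes, against 1496 lower and 2307 higher under upper quartile scaling, where the median log2 of all genes was 0.23. That scaling turned no member's sign. The log2 fold change was negative for 7 of 9 genes, with a median of -0.54 against 0.02 over all genes tested and a range between -1.27 and 0.30. Tcstv3 had 120.6, 135.7 and 71.6 CPM in KO L2C, against 298.2, 301.1 and 191.2 CPM in WT L2C, with no overlap, and log2 fold change -1.27 (SE 0.31, edgeR adjusted p = 0.0167). Same-numbered libraries gave KO over WT ratios of 0.40, 0.45 and 0.37. The call was lost when the close replicates 1 and 2 of each L2C group were summed (edgeR adjusted p = 0.128) and without WT L2C replicate 1 (0.0663) or 2 (0.068), with a log2 fold change of -1.45 to -1.04 over the 12 fits that left out 1 library. In bulk libraries such as these, fewer cells with an RNA and less of it per cell cannot be told apart.

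Zscan4d was lower in each same-numbered pair, at ratios of 0.52, 0.53 and 0.35, but the groups overlapped, as WT L2C replicate 3 had 58.0 CPM. Its log2 fold change was -1.02 (SE 0.82, edgeR adjusted p = 0.427). Zscan4c had 23.9, 23.1 and 2.61 CPM in KO L2C, against 35.7, 41.7 and 22.4 CPM in WT L2C, overlapping through replicate 3 of WT (log2 -1.01, SE 0.76, edgeR adjusted p = 0.395). Zfp352 gave log2 -0.54 (SE 0.59, edgeR adjusted p = 0.57) and same-number ratios of 0.73, 0.73 and 0.45. Tcstv1 gave -0.48 (SE 0.38, edgeR adjusted p = 0.412) with ratios of 0.87, 0.81 and 0.40. Zscan4a had 31.9, 25.5 and 4.36 CPM in KO L2C, against 36.3, 35.6 and 23.9 CPM in WT L2C, overlapping in the same way (log2 -0.63, SE 0.60, edgeR adjusted p = 0.517).

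Zscan4f had 42.1, 39.4 and 2.96 CPM in KO L2C, against 48.1, 47.0 and 16.8 CPM in WT L2C (log2 -0.41, SE 0.77, edgeR adjusted p = 0.755). Zscan4b had 11.5, 10.9 and 1.55 CPM in KO L2C, against 8.25, 8.28 and 2.89 CPM in WT L2C (log2 0.30, SE 0.71, edgeR adjusted p = 0.811). Zscan4e had 2.68, 5.06 and 0.501 CPM in KO L2C, against 3.33, 2.13 and 1.5 CPM in WT L2C (log2 0.24, SE 0.83, edgeR adjusted p = 0.874). All 3 genes had overlapping groups, and their signs depended on the libraries used. Over the fits without 1 library, the log2 values ran between -0.82 and 0.13 for Zscan4f, between -0.06 and 0.79 for Zscan4b and between -0.54 and 0.74 for Zscan4e.

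Replicate 3 was the lowest library of its group for every member at L2C. Its level over the mean of replicates 1 and 2 ran between 0.07 (Zscan4f) and 0.56 (Tcstv3) in KO L2C and between 0.35 and 0.78 in WT L2C, against medians over all genes of 0.88 in KO L2C and 0.90 in WT L2C. Replicate 3 was rRNA-rich in both genotypes, at 34.0% of counts in KO L2C and 24.0% in WT L2C, and the part of that in the difference was not tested. Leaving out the 4 rRNA-rich libraries keeps only replicates 1 and 2 of each L2C group, which were close to each other. The spread at L2C in that fit comes from these close libraries, and 45% of all genes were called. There, 22% of all genes were called lower in KO L2C, and the 2 of 9 members called lower are near that share. They were Tcstv3 (log2 -1.15, edgeR adjusted p = 8.05e-05) and Zscan4c (-0.65, 0.021), and Zfp352 had -0.39 (0.0564) and Tcstv1 -0.18 (0.16). A replicate block compares same-numbered libraries, a pairing that the labels do not state. With it, 17.3% of all genes (3663 of 21160) and 5 members were called lower in edgeR: Tcstv3 at -1.29 (adjusted p = 4.6e-05), Zfp352 at -0.68 (0.0132), Zscan4d at -1.12 (0.0408), Zscan4c at -1.42 (0.0409) and Tcstv1 at -0.60 (0.0436).

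**Figure D2:**
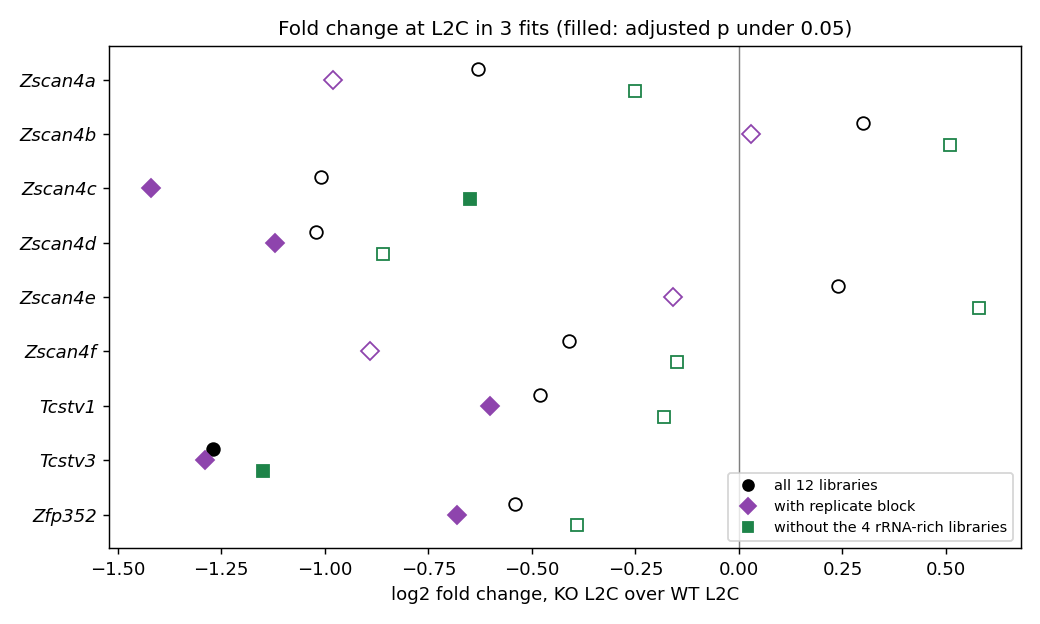
Log2 fold change of KO L2C over WT L2C (horizontal axis) for each gene (rows) in 3 edgeR fits, with filled symbols for an adjusted p under 0.05. Tcstv3 is filled in all 3 fits, between -1.29 and -1.15, and Zscan4b and Zscan4e lie between -0.16 and 0.58, with open symbols. The fit without the 4 rRNA-rich libraries keeps only the close L2C replicates 1 and 2.

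A sum over the 6 Zscan4 genes keeps reads that they may lend to one another only if reads with several matches were counted. Whether they were is not stated, and reads given to pseudogene rows are not kept. The 6 genes together had 186.3, 178.4 and 32.5 CPM in KO L2C, against 274.4, 276.2 and 125.4 CPM in WT L2C. The ratio of group means was 0.59, and 0.66 without replicate 3. With the 3 pseudogene rows of the family added, the sum averaged 195 ± 133.6 CPM in KO L2C and 296.4 ± 117.9 CPM in WT L2C (SD, n = 3 each), a ratio of 0.66, and 0.75 without replicate 3. Tcstv1 and Tcstv3 together averaged 242.2 ± 93.6 CPM in KO L2C and 448.9 ± 88.0 CPM in WT L2C (SD, n = 3 each), a ratio of 0.54, and 0.59 without replicate 3.

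The makeup of the Zscan4 RNA also differed between libraries. Zscan4d held 39.8%, 41.7% and 63.2% of the counts of the 6 genes in KO L2C, against 52.0%, 51.2% and 46.3% in WT L2C. The groups overlapped through replicate 3, where the KO share rested on 649 counts. Zscan4f held 22.6%, 22.1% and 9.09% in KO L2C, against 17.5%, 17.0% and 13.4% in WT L2C. Zscan4b held 6.19%, 6.10% and 4.78% in KO L2C, above its 3.01%, 3.00% and 2.31% in WT L2C in every library. These shares depend on how reads shared between copies were assigned, as 67.6% of the Zscan4b windows also occur in Zscan4e and 56.5% of those of Zscan4f in Zscan4c.

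**Figure D3:**
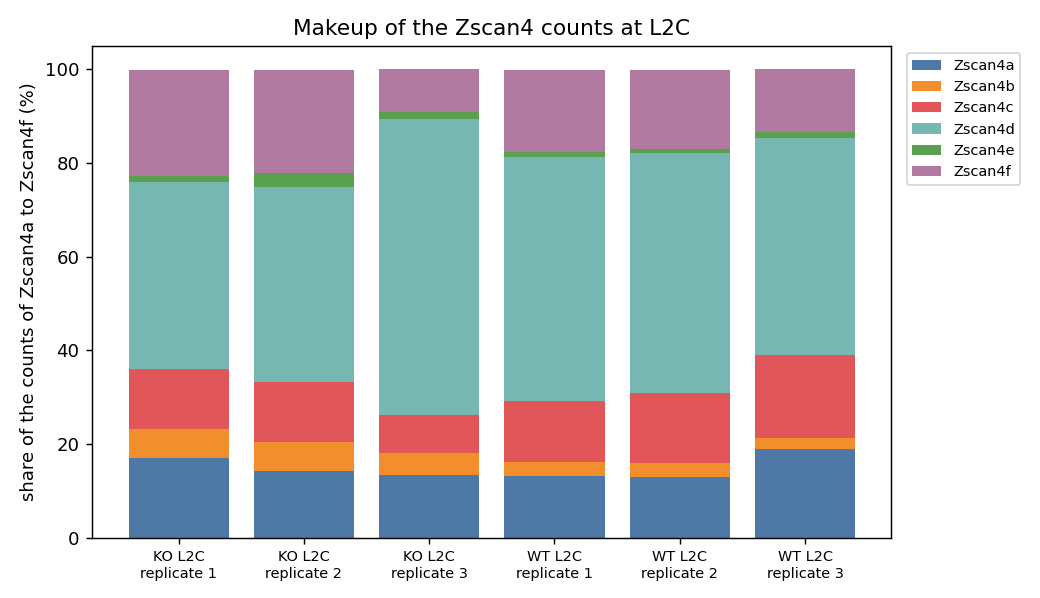
Share of the counts of Zscan4a to Zscan4f (vertical axis, percent) held by each gene in the 6 L2C libraries (horizontal axis). Zscan4d is the widest band in every library, from 39.8% in KO L2C replicate 1 to 63.2% in KO L2C replicate 3.

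The 3 further rows of the family, named as pseudogenes, fell into 2 patterns. Zscan4-ps3 had 66.3, 57.4 and 4.11 CPM in KO L2C and 51.9, 50.8 and 16.7 CPM in WT L2C, with no count in PN3, and Zscan4-ps2 had 16, 21 and 3.01 CPM in KO L2C and 23.2, 26.3 and 11 CPM in WT L2C, with at most 0.286 CPM in PN3. Zscan4-ps1 had 9.02, 9.64 and 1.25 CPM in KO L2C, against 13, 13 and 7.18 CPM in WT L2C. It was present in zygotes as well, at 11.6, 8.64 and 30.7 CPM in KO PN3 and 12.3, 7.51 and 14.6 CPM in WT PN3. As Zscan4f shares 69.0% of its windows with Zscan4-ps2, these rows carry the same uncertainty.

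In zygotes no member was called between KO and WT, where 0.132% of all genes were called in either direction. Neither edgeR nor DESeq2 called any of the 9, and 1 had an unadjusted p under 0.05 in edgeR, against 10.1% of all genes. That gene was Zscan4c, with 2.11, 0.393 and 1.57 CPM in KO PN3, against 0.327, 0 and 0.612 CPM in WT PN3 (log2 2.07, SE 0.94, edgeR adjusted p = 0.48). The groups overlapped, and the pooled counts were 92 in KO PN3 and 23 in WT PN3. Without the 4 rRNA-rich libraries Zscan4c was called higher in KO PN3 (log2 1.99, edgeR adjusted p = 0.00371), in a fit that called 9.63% of all genes in either direction. Zfp352 had 9 counts in KO PN3 and 0 in WT PN3 (edgeR adjusted p = 0.531). Tcstv1 and Tcstv3 had log2 fold changes of 0.27 (SE 0.38) and 0.09 (SE 0.31), with edgeR adjusted p of 0.926 and 1.

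The interaction compared the KO effect at L2C with that at PN3, where 4.94% of all genes were called. No member was called by edgeR, and 3 had an unadjusted p under 0.05, against 21.3% of all genes. DESeq2 called 3, Zscan4c, Tcstv3 and Zfp352, against 7.28% of the 36545 genes with any count. That total includes genes to which DESeq2 gave no adjusted p, so the share among genes with one was higher. Tcstv3 gave -1.36 (SE 0.44, edgeR adjusted p = 0.0965), with DESeq2 at -1.47 (adjusted p = 0.0211), and Zscan4c gave -3.08 (SE 1.21, edgeR adjusted p = 0.16), with DESeq2 at -3.22 (adjusted p = 0.0438). With the replicate block in edgeR, 4 members were called, against 17.8% of all genes, with Tcstv3 at -1.36 (adjusted p = 0.000633), Zscan4c at -3.59 (0.0136) and Tcstv1 at -0.92 (0.0487) and with Zfp352 as the other. Zfp352 has no fold here because its WT PN3 libraries held no count.

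On chromosome 13, the further 2-cell genes Gm20767, AF067061 and AF067063 lie near Tcstv1 and Tcstv3. Within 500 kb of either gene 23 further genes were tested, and 5 of them were called lower and 1 higher in KO L2C, against 9.74% and 7.24% of all genes. Gm21731 averaged 151.1 ± 65.2 CPM in KO L2C and 449.6 ± 78.0 CPM in WT L2C (SD, n = 3 each), with log2 -1.57 (SE 0.44, edgeR adjusted p = 0.0292). Gm21762 had log2 -1.95, D13Ertd608e -1.80, BC147527 -1.22 and Gm21818 -0.93, with edgeR adjusted p between 0.0294 and 0.0391. The gene called higher was Hmgcs1, which encodes an enzyme of cholesterol synthesis, with 104.3, 93.7 and 94.0 CPM in KO L2C and 45.8, 43.1 and 43.4 CPM in WT L2C (log2 1.14, SE 0.17, edgeR adjusted p = 0.00121). Of the 23 genes, 13 were called higher in L2C than in PN3 in KO and 11 in WT, against 33.5% and 36.2% of all genes. The count of lower genes was 0 with total-count scaling, where 7.9% of all genes were called lower, and with the close libraries summed (1.17%). It was also 0 without KO L2C replicate 1 (5.21%) or 3 (8.97%) or WT L2C replicate 1 (4.71%) or 2 (4.53%). It was 11 without the 4 rRNA-rich libraries, where 22% of all genes were called lower. Reads shared among these genes, many of which are named only by a clone or model number, were not examined.

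**Figure D4:**
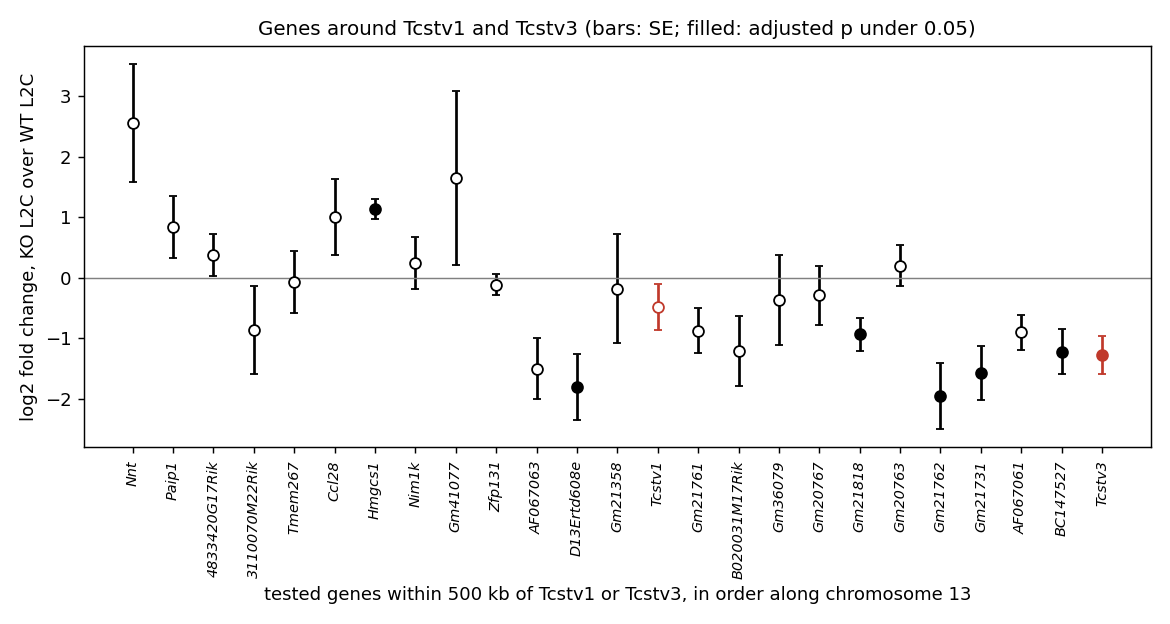
Log2 fold change of KO L2C over WT L2C (vertical axis, bars for SE) of the tested genes within 500 kb of Tcstv1 or Tcstv3, in their order along chromosome 13, with filled points for an edgeR adjusted p under 0.05 and Tcstv1 and Tcstv3 in red. The 5 filled points below 0 besides Tcstv3 lie between -1.95 and -0.93, and Hmgcs1 is the filled point above 0.

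Near the Zscan4 cluster on chromosome 7, 20 further genes were tested, and 1 was called higher and 1 lower in KO L2C, against 7.24% and 9.74% of all genes. Their median log2 was -0.73, against 0.02 over all genes and -0.29 for the 23 genes on chromosome 13. The 20 include the Zscan4 pseudogene rows.

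Of 13 tested activators of the 2-cell genes, 4 were called higher and 2 lower in KO L2C, against 7.24% and 9.74% of all genes. Their median log2 was 0.40, against 0.02 over all genes. In WT the 4 higher ones were called lower in L2C than in PN3 (log2 -4.79 to -1.32), as 25.4% of all genes were. The 2 lower ones were called higher in that comparison, as 36.2% of all genes were. None of the 4 higher calls was left (0) without KO L2C replicate 1 or 2 or without WT L2C replicate 1 or 2. In those fits the share of all genes called higher also fell, from 7.24% to between 2.91% and 3.59%. The count of lower calls was 2 in each of them, where 4.53% to 5.24% of all genes were called lower. Nr5a2, a nuclear receptor, had 40.3, 43.9 and 39.9 CPM in KO L2C, against 90.2, 89.2 and 86.4 CPM in WT L2C (log2 -1.10, SE 0.18, edgeR adjusted p = 0.00185). Dppa4, a chromatin protein that acts with DPPA2, had 147.0, 156.5 and 78.2 CPM in KO L2C, against 435.5, 459.4 and 295.8 CPM in WT L2C (log2 -1.64, SE 0.36, edgeR adjusted p = 0.0089). Neither pair of groups overlapped. Dppa2 averaged 117.0 ± 60.7 CPM in KO L2C and 258.2 ± 89.0 CPM in WT L2C (SD, n = 3 each), with no call in this fit (log2 -1.14, SE 0.46, edgeR adjusted p = 0.108). It was called lower with the replicate block (-1.26, edgeR adjusted p = 0.000171), without the 4 rRNA-rich libraries (-0.95, 2.92e-05) and in DESeq2 (-1.24, adjusted p = 0.0437). Obox1, a homeobox gene, averaged 228.7 ± 114.3 CPM in KO L2C and 63.9 ± 10.7 CPM in WT L2C (log2 1.84, SE 0.46, edgeR adjusted p = 0.0169). Its level was higher in PN3, at 2003.9 ± 886.6 CPM in KO and 1771.2 ± 615.4 CPM in WT (SD, n = 3 each). The row for Dux, Duxf3 in the table, is listed at 0 counts in all 12 libraries, and how reads of this gene, which lies in a repeated array, were counted was not tested.

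Of 22 tested repressors of the 2-cell genes, 1 was called higher and 3 lower in KO L2C (median log2 -0.17), against 7.24% and 9.74% of all genes. The split turned to 3 higher and 1 lower with upper quartile scaling, where 10.9% and 7.07% of all genes were. It was 2 higher and 1 lower with total counts, where 6.72% and 7.9% were. No call was left without KO L2C replicate 1 or without WT L2C replicate 1 or 2. In those fits 2.91% to 3.59% of all genes were called higher and 4.53% to 5.21% lower. Max, the partner of MYC and MGA, had a log2 of 1.13 (SE 0.29, edgeR adjusted p = 0.0194), the deacetylase gene Hdac1 had -1.27 (SE 0.35, 0.0253) and Zmym2 had -0.74 (SE 0.22, 0.0379), a call lost under 11 of the alternatives. Of 20 tested telomere and meiotic recombination genes, 2 were called higher and 3 lower (median log2 -0.09), again against 7.24% and 9.74%. Without WT L2C replicate 1 or 2 there were 0 higher and 1 lower, and without KO L2C replicate 1 or 2 there were 0 higher and 2 lower. Over all genes, 2.91% to 3.59% were called higher and 4.53% to 5.24% lower in these fits. The shelterin genes Terf1 (log2 -1.39, SE 0.26, edgeR adjusted p = 0.0043) and Pot1b (-2.42, SE 0.61, 0.0182) were lower, and the shelterin gene Acd (0.90, SE 0.22, 0.0175) was higher. With the close L2C libraries summed, edgeR called 0 of the activators, repressors or telomere and recombination genes, against 0.624% of all genes higher and 1.17% lower. Without the 4 rRNA-rich libraries it called 6, 8 and 5 of them higher and 5, 7 and 4 lower, against 23% and 22% of all genes.

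Of 38 further 2-cell genes tested, 34 were called higher in L2C than in PN3 in KO and 35 in WT. Over all genes 33.5% and 36.2% were, but these 38 were also listed as 2-cell genes, so their rise was largely set by the choice. In KO L2C, 7 were called lower than in WT L2C and 1 higher, against 9.74% and 7.24% of all genes, with a median log2 of -0.86. Trim43a had a log2 of -1.33 (SE 0.31, edgeR adjusted p = 0.0155) and Sp110 of -1.02 (SE 0.25, 0.0164). Zfp750 was the higher one, with 53.0, 58.5 and 32.5 CPM in KO L2C, against 14.2, 13.1 and 17.5 CPM in WT L2C (log2 1.69, SE 0.25, edgeR adjusted p = 0.00122). It was higher in PN3, at 358.6 to 517.3 CPM in KO and 362.2 to 412.9 CPM in WT. The count of lower genes was 0 with the close libraries summed, where 1.17% of all genes were called lower, or without WT L2C replicate 1 (4.71%). It was 1 without WT L2C replicate 2 (4.53%) and 2 without KO L2C replicate 1 (5.21%) or 2 (5.24%). It was 23 without the 4 rRNA-rich libraries, where 22% of all genes were called lower, and 20 with the replicate block, where 17.3% were.

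The genes whose levels followed the mean log2 CPM of the 9 members most closely over the 12 libraries, among 10406 genes with at least 10 CPM in their highest group, were AA684185, Obox3-ps3, Zscan4-ps2, Pramel5 and Prps1. Their Pearson correlations were 0.996, 0.996, 0.995, 0.994 and 0.993, as a description of 12 libraries that share stage and depth. Prps1, a gene of nucleotide synthesis, averaged 287.0 ± 174.2 CPM in KO L2C and 1105.5 ± 370.5 CPM in WT L2C, against 2.74 ± 1.59 in KO PN3 and 1.95 ± 1.02 in WT PN3 (SD, n = 3 each). Pramel5 averaged 22.9 ± 15.3 CPM in KO L2C and 54.3 ± 20.0 CPM in WT L2C, against 0.0159 ± 0.0275 in KO PN3 and 0.0146 ± 0.0252 in WT PN3 (SD, n = 3 each).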

How the data were processed

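The deposited values are whole-number counts of reads per gene, with no normalization by the authors, as the values themselves show. The submitters' processing notes name featureCounts 2.0.2, STAR 2.7.10a, Trim Galore 0.6.7, DESeq2 and the mm10 build, and neither strand nor multi-mapping settings are stated.

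With edgeR 4.0.16 (R 4.3.3, limma 3.58.1), genes were kept by filterByExpr (34131 left out), scaled by TMM and fitted by robust quasi-likelihood, 1 mean per group over 12 libraries. P-values of 5 comparisons were adjusted by Benjamini-Hochberg over 21160 genes and called under 0.05. This step was tested on simulated data with independent libraries. That simulation holds no rRNA-rich libraries, close replicates or pairing, so it does not cover these features of the data. Alternatives were DESeq2 1.42.0, other scalings and filters, a replicate block, the L2C replicates 1 and 2 summed, and libraries left out. Log2 CPM used a prior count of 2. A floor of 3 counts is 0.109 to 0.171 CPM in a library. Transcript windows came from GENCODE M21.

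No 2 libraries agreed within sampling noise, but L2C replicates 1 and 2 were close (chi-square per gene 3.59 in KO and 3.33 in WT, 16.2 or more elsewhere). Same-numbered KO and WT libraries deviated together (correlations 0.165, 0.455 and 0.274 at PN3, 0.128, 0.15 and 0.221 at L2C). On these counts alone, numbers were taken as pairs in the replicate block and the same-number ratios, as the labels state no pairing. The fit with 1 mean per group, which gave the main calls, did not use the numbers. Differently numbered libraries were not compared in this way, so these correlations cannot show that the numbers are pairs. The replicate block rests on that choice.

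The members, lists and naming rule (all family rows, the 5 genes of highest likeness, up to 3 genes of lowest adjusted p per list, Dux, Dppa2 and Dppa4) were chosen with earlier results of these data known. The chromosome 13 neighbours named were chosen after their values were seen.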

Additional observations from a re-analysis of the deposited data

Results flagged for a closer look

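For 3 genes named above, edgeR's interaction test gave a KO effect that differed between L2C and PN3. Nr5a2 had an interaction of -1.31 on the log2 scale (SE 0.25, edgeR adjusted p = 0.0137). Its PN3 levels were 28.3, 30.2 and 27.8 CPM in KO, against 24.4, 25 and 25.3 CPM in WT, and its L2C levels were 40.3, 43.9 and 39.9 CPM in KO, against 90.2, 89.2 and 86.4 CPM in WT. Gm21818, between Tcstv1 and Tcstv3, had -1.80 (SE 0.38, edgeR adjusted p = 0.0218). Zfp750 had 1.44 (SE 0.34, edgeR adjusted p = 0.0321).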

How the results depend on the processing

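The stage calls, 8 members in KO and 9 in WT, were 8 or 9 under each alternative except DESeq2 (7 in KO, 8 in WT), which gave no adjusted p for Zscan4d. In KO against WT at L2C, 1 member was called, against 5 with the replicate block, 2 without the 4 rRNA-rich libraries, 0 with the close L2C pairs summed and 0 to 1 without 1 library. At PN3 the count was 0, against 1 without the 4 rRNA-rich libraries, where 9.63% of all genes were called. For the interaction it was 0, against 4 with the replicate block, 3 without those 4 libraries and 3 in DESeq2. Those 3 interaction fits called 17.8%, 28.6% and 7.28% of all genes, in the same order. The DESeq2 share is out of 36545 genes with any count, including those given no adjusted p. The count of lower chromosome 13 neighbours, an alternative chosen after seeing the data, was 5, against 2 with upper quartile scaling, 0 with total counts, 3 with no filter, 9 with the replicate block, 11 without the 4 libraries, 0 with the pairs summed and 0 to 7 without 1 library. Over all genes, the share called lower was 9.74%, against 7.07%, 7.9%, 4.78%, 17.3%, 22%, 1.17% and 4.53% to 12% in the same order. The cause was not tested.

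Signs turned in uncalled results. The replicate block gave -0.18 for Zscan4d at PN3 and -0.16 for Zscan4e at L2C. Without 1 library, log2 values at PN3 ran from -2.23 (without KO PN3 replicate 3) to 0.90 for Zscan4d, from -0.01 (without WT PN3 replicate 2) to 0.46 for Tcstv1, and from -0.21 (without KO PN3 replicate 3) to 0.27 for Tcstv3. At L2C they ran from -0.06 (without KO L2C replicate 1) to 0.79 for Zscan4b, from -0.54 (without KO L2C replicate 2) to 0.74 for Zscan4e, and from -0.82 to 0.13 (without KO L2C replicate 3) for Zscan4f. The Zscan4d interaction ran from -1.92 to 1.22 (without KO PN3 replicate 3).

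Over all genes, calls at L2C were 3593, against 6815 with the block, 9524 without the 4 libraries, 379 with the pairs summed and 1574 to 4459 without 1 library. At PN3 they were 28, against 566 with the block, 503 in DESeq2 and 2038 without the 4 libraries. Interaction calls were 1046, against 3772 with the block, 6056 without the 4 libraries and 18 with the pairs summed, and 654 of the 1046 were lower, against 443 of 1138 with upper quartile scaling. Upper quartile scaling turned the L2C split to 2307 higher and 1496 lower, from 1531 and 2062, and moved the median of all genes to 0.23 on the log2 scale. The block changed no other member's call in the stage comparisons. Counts of under 10 per PN3 group limit the Zfp352, Zscan4a, Zscan4b, Zscan4e and WT Zscan4f values.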
